A study of Homo sapiens with 6 samples.

Results

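The genes examined encode the hypoxia-inducible factors (HIFs) and the proteins that couple them to oxygen. They were chosen by name and not by their values, though with earlier results of these data known. They are the rows of the deposited table for the alpha subunits HIF1A, EPAS1 and HIF3A and the beta subunits ARNT and ARNT2. The others are the ubiquitin ligase subunit VHL, the prolyl hydroxylases EGLN1, EGLN2 and EGLN3, and the asparaginyl hydroxylase HIF1AN. All 10 were found among the 20030 genes of the table, and 9 of them had a mean of at least 1 FPKM (fragments scaled to transcript length and to the mapped fragments of the library) over the 6 libraries, the minimum for testing. The cells were 786-O, an established line of clear cell renal cell carcinoma (ccRCC) known to lack functional VHL protein, at passages 16 to 18 by their labels. Total RNA was sequenced from cells stably carrying a lentiviral small hairpin RNA against YB1 (shYB1, 3 libraries) and from cells carrying a scrambled hairpin (vector, 3 libraries), both harvested a week after puromycin selection. The series text mentions several independent hairpins, whereas the labels give a single shYB1 group numbered 1 to 3, and nothing states that the libraries came from separate infections. The p-values therefore measure only the spread between these libraries.

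In normal oxygen, EGLN enzymes hydroxylate prolines of the HIF alpha subunits, VHL binds the hydroxylated protein, and the alpha subunit is ubiquitinated and degraded. In low oxygen, or when VHL is lost as in most ccRCC, the alpha subunit persists, pairs with ARNT and activates genes of glycolysis, angiogenesis and cell growth. HIF-2 alpha, the product of EPAS1, is the alpha subunit regarded as the driver of ccRCC, and 786-O is commonly described as making HIF-2 alpha without functional HIF-1 alpha. YB1 is an mRNA- and DNA-binding protein that has been described to raise the translation of HIF1A mRNA, which FPKM do not measure.

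YB1 knockdown cells had less HIF1A and more ARNT2 mRNA, with smaller falls of EGLN3 and ARNT and a small rise of EGLN2. EPAS1, the most abundant member, VHL, EGLN1 and HIF1AN did not pass the test. Of the 9 members tested, 3 fell and 2 rose at an adjusted p under 0.05 from limma with Benjamini-Hochberg adjustment over 10439 genes, against a background of 6.93% of all tested genes called lower and 18.7% called higher. With median-of-ratios scaling of the libraries, 5 members were lower and 1 higher, since EPAS1 and HIF1AN then passed the test and EGLN2 no longer did. Of all 10439 tested genes, 1253 were lower and 1192 higher with this scaling. With no limit on direction, 25.7% of tested genes were called in the fit without rescaling. The groups did not overlap for 6 of the 9 members, against 42.6% of all tested genes. No member reached a fold change of 2 with an unadjusted p under 0.05, which 0.22% of tested genes did.

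**Figure D1:**
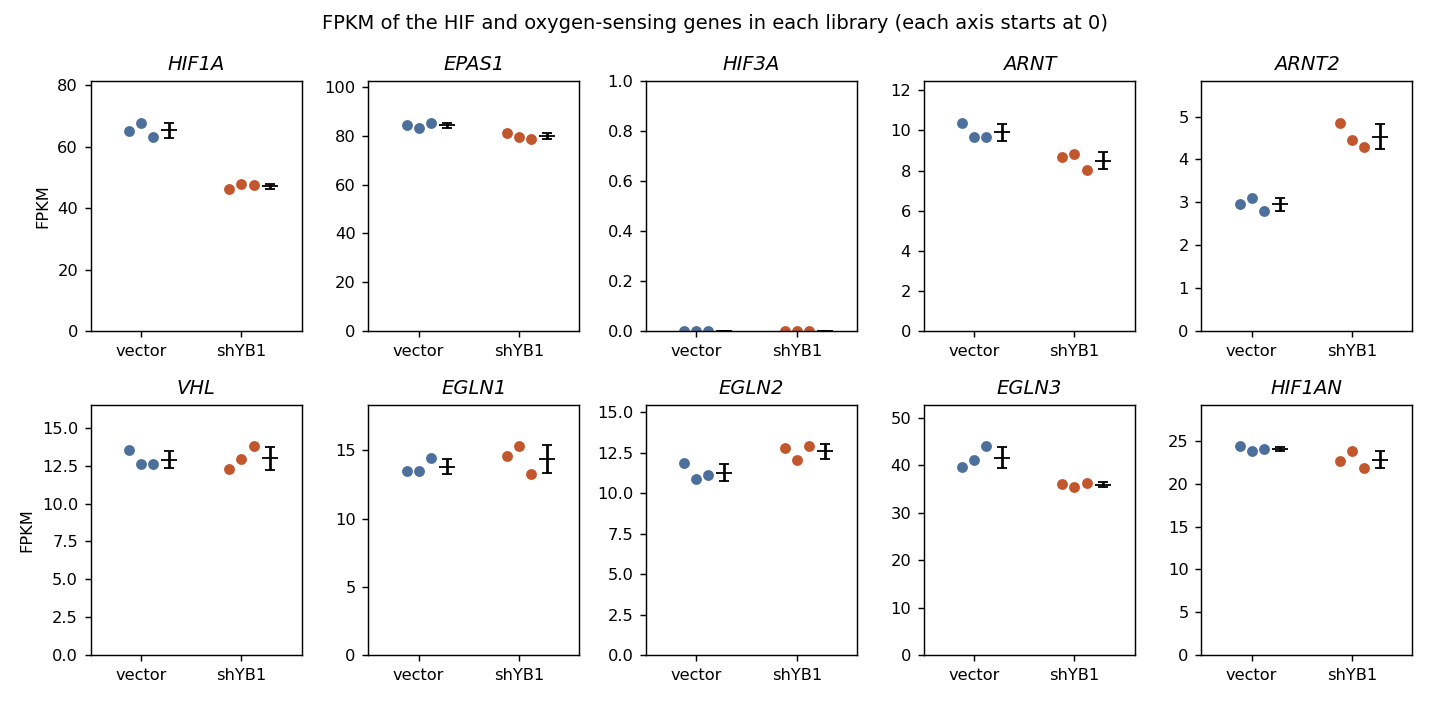
FPKM of each member (vertical axis, starting at 0) in the 3 vector and 3 shYB1 libraries (points, replicates 1 to 3 from left to right), with the group mean and SD beside them. HIF1A lay between 63.2 and 67.9 FPKM in vector and between 46.3 and 47.8 FPKM in shYB1 libraries, ARNT2 was higher in every shYB1 library, and HIF3A was listed at 0 throughout.

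The knockdown and the cell type were checked first. YBX1, the gene of YB1, had 366.5, 372.8 and 377.9 FPKM in vector cells, compared with 166.7, 165.9 and 173.3 FPKM in shYB1 cells, although 30.7% of the 50-base words of its transcripts also occur in other genes, mainly processed copies of YBX1. PAX8, a renal lineage transcription factor, had means of 77.1 and 77.5 FPKM in vector and shYB1 cells. CDH6, a kidney cadherin, fell from 47.9 to 33.0 FPKM (adjusted p = 3.92e-06 from limma), whereas PAX2, another renal transcription factor, rose from 17.1 to 19.0 FPKM (adjusted p = 0.0392 from limma), and the part of these markers in the results was not tested. Among markers of other cell types, the leukocyte genes PTPRC and CD3E were at or under 0.0164 FPKM. Of 4 endothelial markers CDH5 was listed at 0, and their sum was 0.416 to 0.475 FPKM in vector and 0.322 to 0.415 FPKM in shYB1 libraries, most of it PECAM1. The summed level of 4 leukocyte markers was 25.5 to 27.9 FPKM in vector and 22.2 to 23.9 FPKM in shYB1 libraries. Most of it was CD68, a lysosomal glycoprotein, which fell from 25.1 to 22.4 FPKM (adjusted p = 0.00969 from limma), and its part in the results was not tested. The leukocyte marker LYZ varied between libraries, at 1.835, 2.87 and 0.0704 FPKM in vector replicates 1 to 3. In shYB1 replicates 1 to 3 LYZ had 0.173, 0.692 and 1.255 FPKM (adjusted p = 0.806 from limma). Of 5 fibroblast markers COL1A2 was listed at 0, and their sum was 2.50 to 2.61 FPKM and 2.74 to 2.95 FPKM, most of it LUM. Summed FPKM per library ranged from 282736 to 295887, and the deposited values hold no read counts, so the absolute depth is unknown. Relative depth, estimated from the smallest FPKM values, was 0.98 to 1.1 times that of shYB1 replicate 1. The median log2 fold change of all tested genes was 0.055, and all fold changes are on the log2(FPKM + 0.1) scale as shYB1 minus vector. In bulk RNA, a change in the number of cells carrying a transcript and a change in the amount per cell cannot be told apart.

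Since FPKM are scaled to transcript length, levels can be set side by side between genes, though only approximately. The share of 50-base words that also occur in other genes differs, from 0% for EPAS1 to 27.8% for EGLN2. Its effect on the levels was not tested. In vector cells the order was EPAS1, HIF1A, EGLN3, HIF1AN, EGLN1, VHL, EGLN2, ARNT and ARNT2, from a mean of 84.3 FPKM down to 2.95 FPKM. Only EGLN1 and VHL had overlapping ranges among neighbours in this order. The order of means was the same in shYB1 cells, from 79.8 to 4.53 FPKM, where EGLN1 overlapped with VHL and VHL with EGLN2. EPAS1 ranked above 95.2% and HIF1A above 92.7% of tested genes by mean level, whereas ARNT2 ranked above only 28.3%.

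The sequences upstream of the members were examined for the Y-box, CCAAT on either strand, the motif for which Y-box binding proteins are named. RefSeq windows of 250 bases before the start site on GRCh38 matched 8 members, with 12 windows, all but ARNT2 and VHL. A Y-box occurred in 6 of the 12 windows, which belong to 4 members (HIF1A, EPAS1, ARNT and HIF3A), and in 32.0% of the 35116 windows of all genes. EGLN1, EGLN2, EGLN3 and HIF1AN held none in these windows. The core of the hypoxia response element, searched as ACGTG or as GCGTG on both strands, occurred in 5 of the 12 windows, 1 each of HIF1A, EPAS1, HIF3A, EGLN1 and EGLN2, and in 43.2% of all windows. A palindromic core matches on both strands and was then counted at 2 overlapping positions, as in EGLN2. A match is a string of letters and not a measured site of binding.

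The 4 windows that follow belong to HIF1A, ARNT and EGLN3, which fell, and to EPAS1, which did not pass the test, so that they can be read against each other. They are written 5′ to 3′ on the strand of the gene and end at the base before the start site, with each Y-box in capitals. The positions are chr14:61695263-61695512 (plus strand) for HIF1A, chr2:46297157-46297406 (plus strand) for EPAS1, chr1:150876600-150876849 (minus strand) for ARNT and chr14:33951075-33951324 (minus strand) for EGLN3. The RefSeq starts of EPAS1, ARNT and EGLN3 lie inside the longer GENCODE spans of these genes.
HIF1A: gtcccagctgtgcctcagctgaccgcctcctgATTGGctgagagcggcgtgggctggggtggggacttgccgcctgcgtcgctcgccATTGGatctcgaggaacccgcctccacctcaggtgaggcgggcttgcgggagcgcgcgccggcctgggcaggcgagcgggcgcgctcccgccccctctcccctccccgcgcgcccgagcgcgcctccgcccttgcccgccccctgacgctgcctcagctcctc
EPAS1: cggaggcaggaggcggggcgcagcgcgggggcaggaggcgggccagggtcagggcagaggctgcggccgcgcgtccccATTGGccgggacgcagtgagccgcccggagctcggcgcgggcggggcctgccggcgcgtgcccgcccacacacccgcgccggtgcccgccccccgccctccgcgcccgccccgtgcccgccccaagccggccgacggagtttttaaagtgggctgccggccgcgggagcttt
ARNT: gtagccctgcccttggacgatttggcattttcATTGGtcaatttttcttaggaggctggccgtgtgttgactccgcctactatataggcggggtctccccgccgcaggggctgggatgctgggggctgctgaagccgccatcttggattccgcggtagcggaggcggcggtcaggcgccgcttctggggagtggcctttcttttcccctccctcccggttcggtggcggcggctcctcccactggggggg
EGLN3: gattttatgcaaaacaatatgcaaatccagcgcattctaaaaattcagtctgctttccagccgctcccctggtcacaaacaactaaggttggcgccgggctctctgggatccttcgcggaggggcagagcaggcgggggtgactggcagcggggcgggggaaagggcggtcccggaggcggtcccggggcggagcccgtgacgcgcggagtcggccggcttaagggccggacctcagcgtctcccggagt
The HIF1A window holds 2 Y-boxes, which begin 218 and 163 bases before the start, the EPAS1 window 1 at 172 bases and the ARNT window 1 at 218 bases, and the EGLN3 window holds 0. Members with and without a Y-box thus both occurred among those that fell, and among those that did not pass the test. A second annotated HIF1A start, further into the gene, has 2 Y-boxes, 150 and 67 bases before it.

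HIF1A encodes HIF-1 alpha and lies on GRCh38 chromosome 14 from 61695513 to 61748259 on the plus strand, with 15 exons and 3919 nucleotides in the transcript of the accession the table cites. HIF1A had 65.0, 67.9 and 63.2 FPKM in replicates 1 to 3 of vector, compared with 46.3, 47.8 and 47.7 FPKM in those of shYB1, and all values are given in this order. Every shYB1 library lay well below every vector library, and the spread within shYB1 was narrow. The mean fell by 27.7%, from 65.4 ± 2.35 to 47.3 ± 0.814 FPKM (SD, n = 3 each). This was a log2 fold change of −0.47 (SE, the standard error, 0.036 and 95% confidence interval −0.55 to −0.39, adjusted p = 2.20e-05 from limma). Only 1.10% of tested genes had a log2 fold change this low or lower. The two-sided exact permutation test of the means gave p = 0.1, the lowest value this design can reach, here and for every member whose groups did not overlap. The printed window, which holds 2 Y-boxes, ends just before the first base of this span. HIF1A-AS1, on the opposite strand, and AL137129.1, on the same strand, overlap 2.27% and 2.87% of the exonic bases of HIF1A, and whether the counting used strand is not given in the sources used here.

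EPAS1 encodes HIF-2 alpha and lies on chromosome 2 from 46293667 to 46386703 on the plus strand, with 16 exons and 5166 nucleotides. EPAS1 measured 84.4, 83.2 and 85.3 FPKM in vector, and 81.0, 79.6 and 78.8 FPKM in shYB1 replicates. All shYB1 values lay below all vector values, by a small margin. The means were 84.3 ± 1.05 FPKM and 79.8 ± 1.11 FPKM (SD, n = 3 each). On the log2 scale the change was −0.08 (SE 0.030, 95% confidence interval −0.15 to −0.01), with an adjusted p of 0.0798 from limma, so EPAS1 did not pass the test. The call depended on scaling, and median-of-ratios rescaling gave a log2 fold change of −0.14 and an adjusted p of 0.00858 from limma. None of the 50-base words of EPAS1 occurred in another gene (0%).

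HIF3A encodes HIF-3 alpha, whose splice forms include dominant-negative regulators of the other alpha subunits. It lies on chromosome 19 from 46297046 to 46343433 on the plus strand, was listed at 0 FPKM in all 6 libraries, and was not tested.

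Within each library, the ratio of HIF1A to EPAS1 was 0.771, 0.816 and 0.741 in vector replicates 1 to 3. It was 0.572, 0.600 and 0.605 in shYB1 replicates 1 to 3. The ratio does not depend on the scaling of the library, and its groups did not overlap, with means of 0.776 ± 0.0375 and 0.593 ± 0.0179 (SD, n = 3 each, two-sided exact permutation test, p = 0.1). The 2 transcripts thus changed unequally. Their summed level was 149.7 ± 1.30 FPKM in vector and 127 ± 0.514 FPKM with shYB1 (SD, n = 3 each).

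ARNT encodes HIF-1 beta, the constitutive partner of the alpha subunits and of the aryl hydrocarbon receptor. It lies on chromosome 1 from 150809705 to 150876768 on the minus strand, with 21 exons in the cited transcript. ARNT had 10.4, 9.65 and 9.65 FPKM in vector cells, compared with 8.68, 8.81 and 8.01 FPKM in shYB1 cells. The groups did not overlap, with vector replicate 1 the highest and shYB1 replicate 3 the lowest. The means were 9.89 ± 0.420 and 8.50 ± 0.427 FPKM (SD, n = 3 each), a log2 fold change of −0.22 (SE 0.056, adjusted p = 0.0177 from limma). Of tested genes, 5.7% had a log2 fold change this low or lower. The call was lost without vector replicate 1, at a log2 fold change of −0.18 and an adjusted p of 0.0679 from limma, and without shYB1 replicate 3, at −0.18 and an adjusted p of 0.0579.

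ARNT2, a paralog of ARNT best known from neurons and kidney that also pairs with the alpha subunits, changed in the opposite direction. It lies on chromosome 15 from 80404350 to 80597937 on the plus strand, with 19 exons and 6558 nucleotides, and a pair of antisense genes overlaps 0.969% and 1.80% of its exonic bases. ARNT2 had 2.95, 3.10 and 2.81 FPKM in vector cells, compared with 4.86, 4.46 and 4.28 FPKM in shYB1 cells. Every shYB1 library exceeded every vector library by more than the range within either group. The means were 2.95 ± 0.144 and 4.53 ± 0.294 FPKM (SD, n = 3 each), a ratio of 1.53. The log2 fold change was 0.60 (SE 0.073, 95% confidence interval 0.44 to 0.76, adjusted p = 0.000328 from limma), and 0.536% of tested genes rose as much or more.

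The ratio of ARNT2 to ARNT was 0.285, 0.321 and 0.291 across vector cells, against 0.560, 0.506 and 0.534 across shYB1 cells. It did not overlap between the groups, with means of 0.299 ± 0.0192 and 0.533 ± 0.0267 (SD, n = 3 each, two-sided exact permutation test, p = 0.1). This separation and its p-value follow from the values of the single genes, since ARNT2 rose and ARNT fell without overlap. The summed FPKM of both beta subunits overlapped between the groups, at 12.9 ± 0.446 in vector and 13.0 ± 0.653 in shYB1 cells (SD, n = 3 each, two-sided exact permutation test, p = 0.8). The alpha subunits exceeded the beta subunits in all libraries. Their summed FPKM was 11.7 ± 0.393 times that of ARNT and ARNT2 in vector and 9.77 ± 0.463 times in shYB1 cells (SD, n = 3 each), without overlap.

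**Figure D2:**
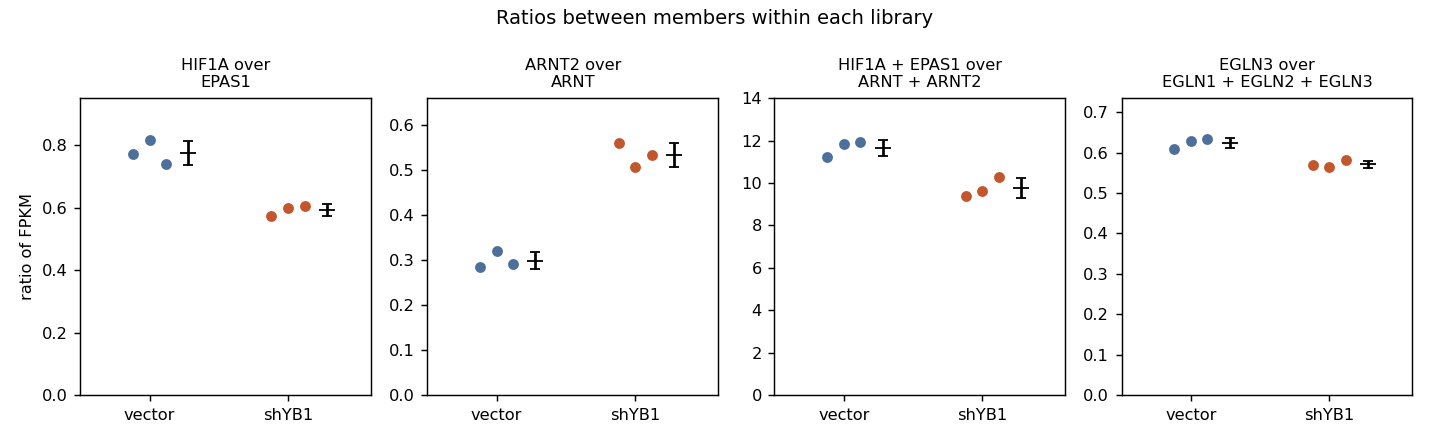
Ratios of FPKM within each library (vertical axes, starting at 0) for HIF1A over EPAS1, ARNT2 over ARNT, both alpha over both beta subunits, and EGLN3 over the 3 prolyl hydroxylases, with group mean and SD. In each panel the shYB1 points stand apart from the vector points: the ARNT2 ratio lies higher, at 0.506 to 0.560 against 0.285 to 0.321, and the others lie lower.

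VHL encodes the substrate-binding subunit of the ligase and lies on chromosome 3 from 10141008 to 10152220 on the plus strand. Its mRNA was present, at 13.5, 12.6 and 12.6 FPKM in vector cells, compared with 12.3, 12.9 and 13.8 FPKM in shYB1 cells. The ranges overlapped, and the means were 12.9 ± 0.539 and 13.0 ± 0.752 FPKM (SD, n = 3 each). The log2 fold change was 0.01 (95% confidence interval −0.11 to 0.13, adjusted p = 0.917 from limma), and it was negative after median-of-ratios and quantile rescaling. FPKM do not show whether the mRNA can be translated into functional protein.

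EGLN1 encodes PHD2, the main oxygen sensor of the prolyl hydroxylases in most cells. It lies on chromosome 1 from 231363751 to 231425044 on the minus strand, with 5 exons and 7097 nucleotides. EGLN1 measured 13.5, 13.5 and 14.4 FPKM across vector cells, against 14.6, 15.3 and 13.3 across shYB1 cells. The groups overlapped, since shYB1 replicate 3 was the lowest of all libraries and shYB1 replicate 2 the highest. The fold change on the log2 scale was 0.06 (95% confidence interval −0.07 to 0.19, adjusted p = 0.507 from limma).

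EGLN2, which encodes PHD1, a mainly nuclear prolyl hydroxylase, lies on chromosome 19 from 40798996 to 40808433 on the plus strand, with 6 exons and 2102 nucleotides. EGLN2 measured 11.9, 10.9 and 11.1 FPKM across vector cells, against 12.8, 12.1 and 12.9 across shYB1 cells. All shYB1 values exceeded all vector values, with the lowest shYB1 and the highest vector library close together. The means were 11.3 ± 0.505 and 12.6 ± 0.457 FPKM (SD, n = 3 each), a log2 fold change of 0.16 (SE 0.051, adjusted p = 0.0447 from limma). A rise of this size was common, since 25.6% of tested genes rose as much or more. The call was lost in 9 of 15 alternatives, among them median-of-ratios rescaling, with a log2 fold change of 0.10 and an adjusted p of 0.196 from limma. It was also lost without vector replicate 2, without vector replicate 3, without shYB1 replicate 1 and without shYB1 replicate 3, with log2 fold changes between 0.13 and 0.15 and adjusted p-values between 0.0981 and 0.128. The value is uncertain for a further reason: 27.8% of the 50-base words of EGLN2 are shared with other genes, mainly the read-through gene RAB4B-EGLN2, which overlaps 30.6% of its exonic bases.

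EGLN3 encodes PHD3 and is itself a well-known HIF target, highly expressed in ccRCC. The annotated gene lies on chromosome 14 from 33924231 to 34462774 on the minus strand, and the cited transcript has 5 exons and 2709 nucleotides. EGLN3 had 39.6, 41.2 and 44.0 FPKM in vector cells, compared with 36.2, 35.3 and 36.3 FPKM in shYB1 cells. Every shYB1 library lay below every vector library, and vector replicate 3 stood highest. The means were 41.6 ± 2.23 and 35.9 ± 0.522 FPKM (SD, n = 3 each), so the mean fell by 13.6%. The fall on the log2 scale gave −0.21 (SE 0.043, 95% confidence interval −0.30 to −0.11, adjusted p = 0.00595 from limma). Of tested genes, 6.02% had a log2 fold change this low or lower.

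EGLN3 was the most abundant of the prolyl hydroxylases in every library. Its share of their summed FPKM was 0.610, 0.628 and 0.633 across vector cells, against 0.569, 0.564 and 0.581 across shYB1 cells, without overlap. The share of EGLN2 was 0.170 ± 0.0116 in vector and 0.200 ± 0.00707 in shYB1 cells, and that of EGLN1 was 0.207 ± 0.00134 and 0.229 ± 0.0157 (SD, n = 3 each). The sum of the 3 transcripts was 66.7 ± 2.50 FPKM in vector and 62.9 ± 0.574 FPKM with shYB1 (SD, n = 3 each). The groups did not overlap in this sum either.

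HIF1AN encodes FIH, the hydroxylase that blocks binding of coactivators to the alpha subunits in oxygen. It lies on chromosome 10 from 100529072 to 100559998 on the plus strand. Its neighbour NDUFB8 overlaps 2.33% of its exonic bases on the opposite strand. Its FPKM were 24.4, 23.9 and 24.1 across vector cells, against 22.7, 23.9 and 21.9 across shYB1 cells. The groups overlapped only through shYB1 replicate 2. The log2 fold change was −0.08 (95% confidence interval −0.17 to 0.02, adjusted p = 0.194 from limma), and after median-of-ratios rescaling it was −0.13 and passed (adjusted p = 0.0437 from limma), the alternatives giving 0.0345 to 0.463.

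**Figure D3:**
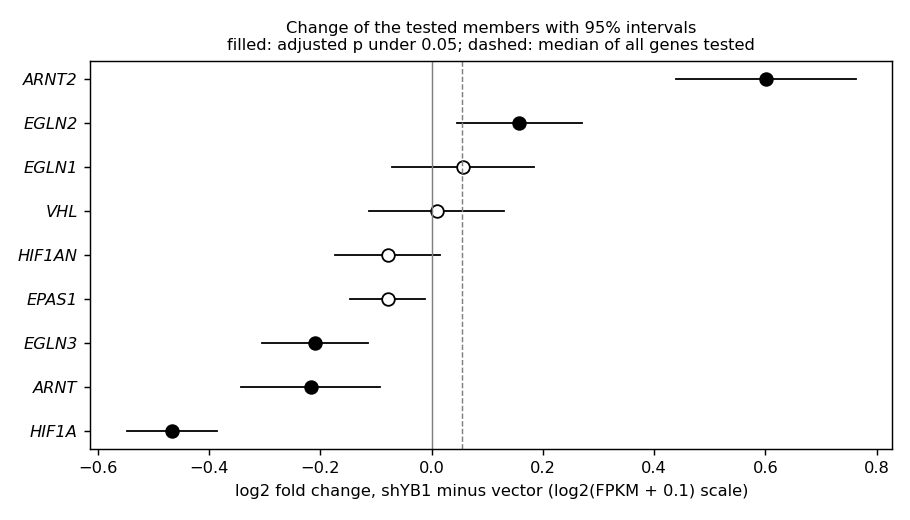
Log2 fold change (horizontal axis, shYB1 minus vector on the log2(FPKM + 0.1) scale) of the 9 tested members with 95% confidence intervals; filled points passed an adjusted p under 0.05 and the dashed line marks the median of all tested genes, 0.055. HIF1A at −0.47 and ARNT2 at 0.60 stand furthest from 0, and the intervals of VHL, EGLN1 and HIF1AN include 0.

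The other genes of the pathway were taken from 6 lists with 64 genes, of which 55 were tested and 25 (45.5%) passed limma at an adjusted p under 0.05, 10 lower and 15 higher, against 25.7% of all tested genes. By direction, 6.93% of all tested genes were called lower and 18.7% higher, and their median log2 fold change was 0.055. Each list below is to be read beside these shares. After median-of-ratios rescaling the calls of the lists were 16 lower and 10 higher, against 1253 lower and 1192 higher of all 10439 tested genes. The lists were chosen with earlier results of these data known, so their counts are a description. The background was not matched for level, and the SE differed between abundant and scarce genes. It was 0.029 for VEGFA of these lists, which ranked above 98.8% of tested genes, and 0.073 for ARNT2, above 28.3%.

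Of the 4 tested partners of VHL in its ligase, 1 rose and 3 did not pass. ELOC, an elongin subunit that binds VHL, rose from 23.4 to 26.6 FPKM (log2 fold change 0.19, adjusted p = 0.0363 from limma), and this call was lost in 8 of 15 alternatives, with an adjusted p of up to 0.104. The 8 included median-of-ratios rescaling, vector replicate 1 left out and each shYB1 replicate left out. ELOB, the most abundant of them, had 60.1 and 65.4 FPKM in vector and shYB1 cells (adjusted p = 0.0762 from limma).

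Of 18 cofactors and stability factors, 5 fell, 4 rose and 9 did not pass, with a median log2 fold change of −0.03. After median-of-ratios rescaling 7 fell and 3 rose. ACO1, which as iron regulatory protein 1 binds the iron-responsive element of EPAS1 mRNA and represses its translation when iron is low, had 40.3, 39.7 and 40.2 FPKM in vector cells, compared with 30.3, 30.6 and 30.4 FPKM in shYB1 cells. This fall was well beyond the spread of the libraries (log2 fold change −0.40, SE 0.033, adjusted p = 3.09e-05 from limma). HSP90AA1, a chaperone of the alpha subunits, rose from 100.9 to 125.3 FPKM (log2 fold change 0.31, adjusted p = 7.31e-05 from limma). SART1, known as a hypoxia-associated factor that promotes HIF-1 alpha degradation, rose from 10.6 to 12.6 FPKM (log2 fold change 0.25, adjusted p = 0.0101 from limma). WSB1, a ubiquitin ligase subunit reported to target VHL, fell from 42.8 to 36.4 FPKM (log2 fold change −0.23, adjusted p = 0.00771 from limma). These 4 calls held in all 15 alternatives tried. RACK1, the most abundant gene of the list, which promotes degradation of HIF-1 alpha independently of oxygen, had 837.3 and 822.1 FPKM (adjusted p = 0.633 from limma).

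Among 11 relatives of the HIF subunits (bHLH-PAS factors), 5 were tested, 1 fell and 1 rose. ARNTL2, a circadian paralog of ARNT, rose from 3.78 to 4.56 FPKM (log2 fold change 0.27, adjusted p = 0.0101 from limma). AHR, the aryl hydrocarbon receptor that shares ARNT as partner and the most abundant of these genes, fell from 17.5 to 15.5 FPKM (log2 fold change −0.18, adjusted p = 0.0165 from limma), a call lost without vector replicate 2 or without shYB1 replicate 2, with an adjusted p of up to 0.0665. Of 5 other oxygen-dependent dioxygenases, only KDM3A, a histone demethylase and HIF target, passed, rising from 5.21 to 5.89 FPKM (log2 fold change 0.17, adjusted p = 0.0446 from limma), and the call was lost in 10 of 15 alternatives, with an adjusted p of up to 0.144. The 10 included the replicate number as a block and the fits without vector replicate 1 or 2 or without any 1 of the shYB1 replicates. ADO, a cysteamine dioxygenase and the most abundant of these, had 15.1 and 16.6 FPKM (adjusted p = 0.0527 from limma).

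The targets of HIF were given as a readout of the pathway. Since 786-O is commonly described as lacking functional HIF-1 alpha, the first list is not taken to show HIF-1 activity. Of 10 targets bound mainly by HIF-1, 9 were tested and 1 passed, with a median log2 fold change of 0.09 for the 9. PFKFB4, a regulator of glycolysis, rose from 4.64 to 5.62 FPKM (log2 fold change 0.28, adjusted p = 0.0337 from limma), and the call was lost in 9 of 15 alternatives, with an adjusted p of up to 0.106, also without vector replicate 1 or 2 and without each shYB1 replicate in turn. LDHA, lactate dehydrogenase and the most abundant of these targets, had 349.3 and 371.4 FPKM (adjusted p = 0.0647 from limma). The direction of the count turned after median-of-ratios rescaling, where CA9, a carbonic anhydrase named here after its values were seen, was the target that passed (log2 fold change −0.23, adjusted p = 0.0179 from limma). After quantile rescaling 1 target was lower and 1 higher, and after scaling to a common total 1 was lower and 2 higher. LDHA was among the higher targets in both (adjusted p = 0.00339 and 0.0193 from limma).

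Of 16 targets that are shared or driven mainly by HIF-2, 14 were tested, of which 4 fell, 7 rose and 3 did not pass. Of all tested genes, 6.93% were called lower and 18.7% higher in the same fit. The median log2 fold change was 0.04 for the list and 0.055 for all tested genes. After median-of-ratios rescaling 7 of these targets fell and 6 rose. ANGPTL4, a secreted inhibitor of lipoprotein lipase, had 10.2, 7.36 and 8.10 FPKM in vector cells, compared with 17.5, 16.7 and 17.8 FPKM in shYB1 cells (log2 fold change 1.02, adjusted p = 0.000218 from limma). TGFA, an autocrine growth factor of ccRCC, rose from 49.1 to 61.4 FPKM, a log2 fold change of 0.32. BHLHE41, a transcriptional repressor, fell from 66.1 to 54.8 FPKM, a log2 fold change of −0.27. These 3 calls held in all 15 alternatives. NDRG1, the most abundant target of the list and a hypoxia-induced stress protein, rose from 500.4 to 542.1 FPKM (log2 fold change 0.12, adjusted p = 0.0187 from limma), a call lost in 6 of 15 alternatives, with an adjusted p of up to 0.131, also without vector replicate 1 or 2 and without shYB1 replicate 2 or 3. VEGFA, the angiogenic growth factor, was singled out after its values were seen: it had 332.5, 344.0 and 335.8 FPKM in vector cells, compared with 312.1, 314.6 and 315.1 FPKM in shYB1 cells (log2 fold change −0.10, adjusted p = 0.0252 from limma), and the call was lost in 6 of 15 alternatives, with an adjusted p of up to 0.263, also without vector replicate 2 and without each shYB1 replicate in turn. Targets of the same list thus moved in both directions.

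**Figure D4:**
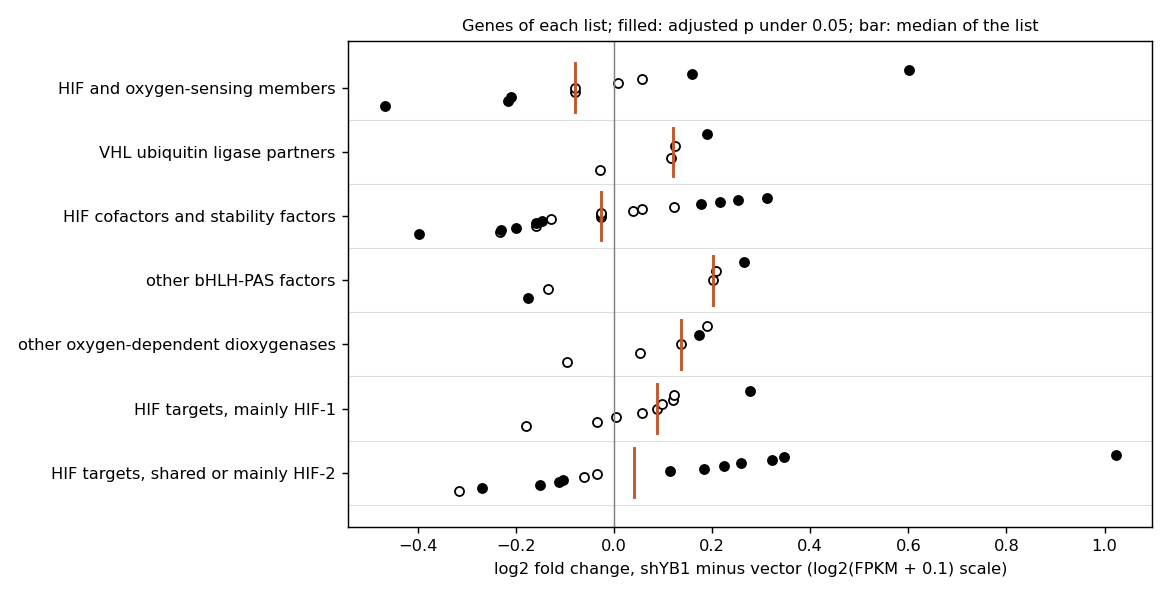
Log2 fold change (horizontal axis, shYB1 minus vector) of every tested gene of the member list and the 6 other lists (rows), with filled points for an adjusted p under 0.05 from limma and a bar at the median of each list. The members run from −0.47 to 0.60 and the shared or HIF-2 targets from −0.32 to 1.02, with called genes on both sides of 0.

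In the KEGG annotation of the deposited table, 6 of the members belong to the HIF-1 signaling pathway. Of its 100 genes 74 were tested, limma called 13 lower and 15 higher at the same threshold (37.8%, against 25.7% of all tested genes), and their median log2 fold change was 0.025. Of all tested genes, 6.93% were called lower and 18.7% higher, with a median of 0.055. The KEGG set was added after the data were seen, and the background was not matched for level.

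The genes whose pattern over the 6 libraries was most like that of EPAS1 were WDTC1, CRTAP, ACACA, METTL9 and AP2B1. Likeness was measured as the root mean square difference of log2(FPKM + 0.1) after each gene's mean over the libraries was subtracted, and it ranged from 0.0107 for WDTC1 to 0.0152 for AP2B1. Their direction and size of change follow from this choice.

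The calls of HIF1A, ARNT2 and EGLN3 held under each alternative that could be fitted. HIF1A ranged from −0.52 to −0.44 and EGLN3 from −0.26 to −0.17 on the log2 scale over 15 alternatives, with adjusted p-values from limma of at most 0.00173 and 0.0290. ARNT2 ranged from 0.48 to 0.64 over 14 alternatives, with adjusted p-values of at most 0.00261.

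**Figure D5:**
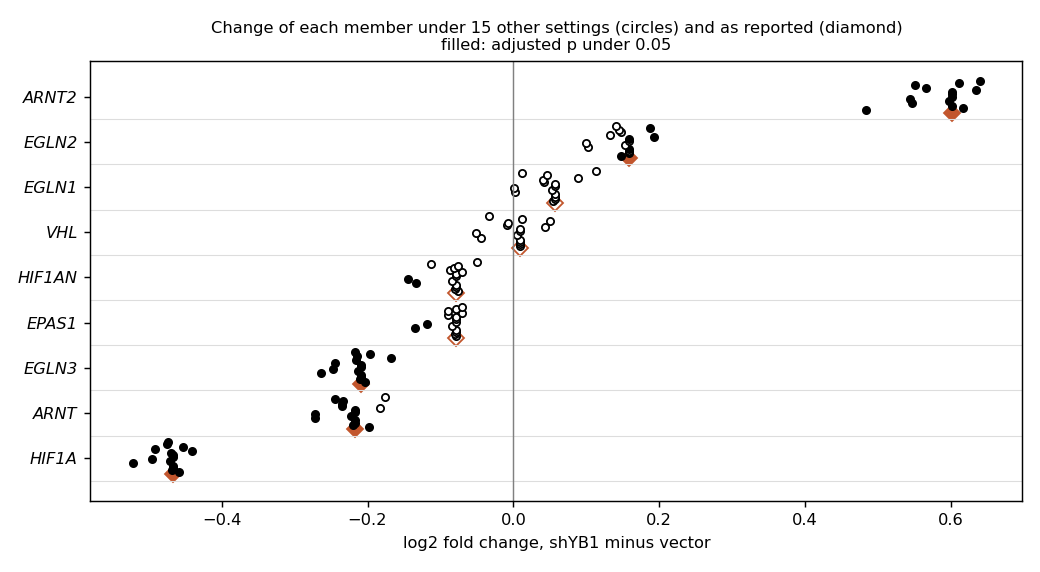
Log2 fold change (horizontal axis, shYB1 minus vector) of each tested member as reported (diamond) and under the other settings (circles: another pseudocount, filter, scaling, variance prior or block, or a library left out), filled where the adjusted p from limma was under 0.05. HIF1A, ARNT2 and EGLN3 are filled throughout, whereas the fill of ARNT, EGLN2, EPAS1 and HIF1AN differs between settings and VHL lies on both sides of 0.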

How the data were processed

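RNA-seq of 786-O cells was taken as deposited. The authors deposited FPKM for 20030 genes in 6 libraries, with replicates not pooled. The submitters' processing notes name GRCh38, Trimmomatic, HISAT2, Cufflinks, HTSeq and DESeq, with no versions or roles given. No count was available, so the absolute depth of the libraries is unknown, and the precision was judged from the spread between the 3 libraries of each group.

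Values were taken as log2(FPKM + 0.1), and the 10439 genes averaging 1 FPKM or more were compared between groups by limma 3.58.1 in R 4.3.3 (expression trend, robust prior). Tests were two-sided, and p-values were adjusted by Benjamini-Hochberg across these genes. The criteria of the study's methods, a fold change of 2 and p under 0.05, were applied to the same fit. The step was tested on simulated data. Single values were compared with exact permutation tests. Named genes were all 10 members, YBX1, the most abundant gene and up to 4 called genes with the largest change of each list, and the 5 genes most like EPAS1. The result of 1 gene that this rule covers is not reported here. The members and lists were chosen with earlier results of these data known. Alternatives were pseudocounts of 1 and 0.01, no filter, a mean of at least 5 FPKM, 3 scalings, no trend, a replicate block and each library left out. Coordinates are from GENCODE release 29 (9 members matched by RefSeq accession, VHL by symbol). Python 3.11.15 with pandas 2.3.3 and matplotlib 3.10.9 was used for annotation and plots.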

Additional observations from a re-analysis of the deposited data

How the results depend on the processing

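Over 15 alternatives the number of members called was 3 to 6 (5 as reported), and with a library left out it was 3 to 5, the lowest without shYB1 replicate 3, where ARNT and EGLN2 no longer passed. The number meeting a fold change of 2 was 0 throughout. VHL, which was never called, had a negative log2 fold change after median-of-ratios (−0.045) and quantile (−0.051) rescaling, and ranged from −0.033 to 0.050 with a library left out, negative without vector replicate 2 (−0.009), vector replicate 3 (−0.007) or shYB1 replicate 3 (−0.033), and the cause was not tested. All tested genes called numbered 1861 to 2834, against 2679, and split into 723 lower and 1956 higher as deposited, 1253 and 1192 after median-of-ratios and 1184 and 1267 after quantile rescaling. Genes of the 6 pathway lists called numbered 17 to 27, against 25.

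Replicate numbers 1 to 3 occur in both groups, and the labels do not say that a number marks a shared culture or day. Deviations of same-numbered libraries from their group means correlated at −0.169 to −0.00824 across genes, so the numbers were not taken as pairs. With the replicate block, 5 members, 2834 genes of all tested and 25 list genes were called, and no call of a member changed. ARNT2 could not be tested at a mean of at least 5 FPKM, and HIF3A in none of the fits. With no read counts, the absolute depth behind these values is unknown. The interval of the difference for VHL reaches from −0.11 to 0.13.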
